A study of Mus musculus with 12 samples.

Results

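The comparison described here is that of Lrrk2 knockout with wild-type mouse kidney after sham surgery, the baseline difference between the genotypes. Its members are the 6 sham libraries of the 12 in the study, 3 labelled wild type (WT sham 1 to 3) and 3 labelled knockout (KO sham 1 to 3), chosen by their labels. All 16383 genes of the deposited table were considered, of which 6498 had a count of 0 in every library and 5048 had enough counts to be tested. The remaining 6 libraries came from WT and knockout kidneys after ischemia and reperfusion (I/R), in which the left kidney was made ischemic for 30 min at 37 °C and the opposite kidney was removed. Sham animals had this surgery without the ischemia, so both sham groups had 1 kidney left. The sources used here give neither strain, sex, age and time of collection nor the deleted part of Lrrk2. Whether libraries are from separate animals is not stated in the labels, and p-values therefore reflect the spread among these samples, which may in part be technical.

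LRRK2 is a large multidomain protein with a kinase and a GTPase activity that phosphorylates a group of Rab GTPases, the switches that direct membrane traffic. In the kidney it is made in tubule epithelium, and rodents that lack it are known for enlarged, pigmented lysosomes in proximal tubule cells. Proximal tubule cells take their energy mainly from fatty acid oxidation, which the nuclear receptor PPAR alpha regulates, and they reclaim filtered protein through endocytosis and lysosomal breakdown.

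Lrrk2 reads were present in every library labelled knockout. The gene (chr15:91673175-91816120, coordinates as in the table, which match GRCm38) had 433, 257 and 362 CPM (edgeR's read count scaled for library size) in WT sham 1 to 3 and 96.5, 319 and 55.5 CPM in KO sham 1 to 3. KO sham 1 and 3 were below all 3 WT libraries, and KO sham 2 lay within the WT range. The log2 difference, KO sham minus WT sham, was -1.16 ± 0.55 (SE), with a 95% interval of -2.35 to 0.03, and it missed the test (edgeR adjusted p = 0.809). Leaving out KO sham 1 gave -0.90, leaving out KO sham 3 gave -0.76, and with both left out the value was -0.14. Leaving out KO sham 2 gave -2.21 (edgeR adjusted p = 0.213, within 0.213 to 1.0 over the alternatives). The counts are per gene and not per exon, so they do not show whether a part of the gene was deleted.

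The 6 libraries had between 4678827 and 5417038 counts over the table. KO sham 3 stood apart, with 24.7% of its counts on mitochondrially encoded genes and 23.7% on nuclear genes that are near-copies of them, against 5.64% to 10.7% and 6.52% to 8.93% in the other 11 libraries. Its log2 CPM correlated with those of the other sham libraries at 0.871 to 0.900, against 0.936 to 0.971 among the other 5, as a description over the tested genes. It exceeded all of the other sham libraries by more than 1 log2 unit for 286 genes and fell short by that much for 322. KO sham 1 did so for 56 and 55 genes, KO sham 2 for 6 and 8. KO sham 1 also had 5 counts on chromosome Y genes, against 30 to 157 in the other 11 libraries, and WT sham 3 and KO sham 3 had 1.17% and 0.271% of their counts on Gpx3, against 7.38% to 9.33% in the other sham libraries. The table's counts and FPKM columns did not match for KO I/R 2, which enters the sham comparison only through the shared estimate of spread.

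**Figure D1:**
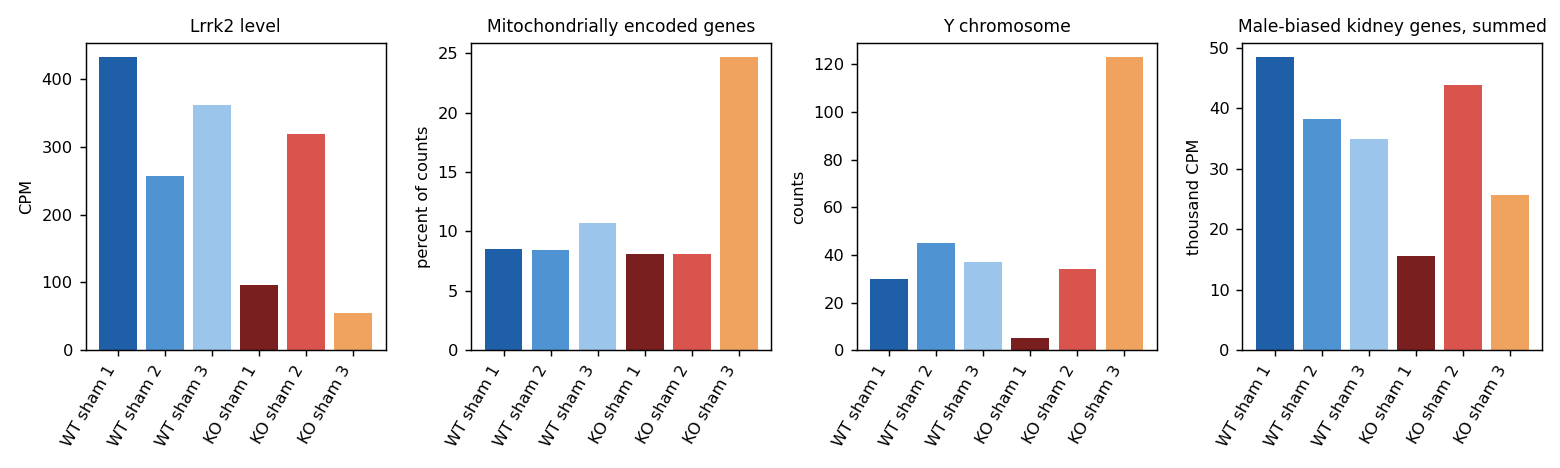
Bars for the 6 sham libraries show Lrrk2 in CPM, the percent of counts on mitochondrially encoded genes, counts on chromosome Y and the summed CPM of 16 genes higher in male kidney. KO sham 3 has 24.7% mitochondrial counts, KO sham 1 has 5 chromosome Y counts, and both have Lrrk2 bars shorter than every WT bar.

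No gene passed an adjusted p of 0.05 in the edgeR quasi-likelihood test of KO sham against WT sham. The share called was 0.0% of the 5048 genes, and 285 genes (5.65%) had an unadjusted p under 0.05. The smallest adjusted p was 0.119. Groups did not overlap, KO higher, for 245 genes (4.85%) and, KO lower, for 272 genes (5.39%), 10.2% of all genes in either direction. Of all tested genes 2664 had a log2 difference above 0 and 2377 below, with a median of 0.03. Other tools gave more calls, with 28 in DESeq2 (14 higher, 14 lower, and 349 genes at an unadjusted p under 0.05) and 1 in limma-voom with sample quality weights (290 genes at that unadjusted p). Without the filter on low counts, edgeR called 5 genes, Gm42031, Gm43305, Ugt1a6a, Igkv1-110 and Gm15441. All differences below are described as higher or lower with their values. Each missed the edgeR test with all 12 libraries and the filter.

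Genes of fatty acid oxidation and PPAR alpha targets were mostly lower in KO sham. Of the 53 genes listed for it, 17 are in the table and 16 were tested. Of these, 15 had a log2 difference below 0 and 8 had all KO libraries under all WT libraries, against 5.39% of all genes. The list's median log2 difference was -0.69, against 0.03 over all genes tested, and 7 members had an unadjusted p under 0.05. The median over members of the log2 deviation from the WT sham mean was -0.49, -0.49 and -1.43 in KO sham 1 to 3. With KO sham 1 left out the list's median was -0.77, and 10 members were lower without overlap (10% of all genes then). With KO sham 2 left out 11 were (12%). With KO sham 3 left out the median was -0.53 and 8 were (11.5%). With KO sham 2 as the only KO library the median was -0.50. In bulk tissue, fewer cells of a type and less RNA per cell cannot be told apart.

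The peroxisomal arm included Acaa1b, a thiolase that carries out the last step of peroxisomal beta-oxidation. Acaa1b had 2646, 4786 and 3982 CPM in WT sham 1 to 3 and 1199, 1641 and 1622 CPM in KO sham 1 to 3. All 3 knockout libraries lay below every WT library, at similar levels to each other. The log2 difference was -1.35 ± 0.30 (95% interval -2.01 to -0.70, edgeR adjusted p = 0.269), and it was -1.22 and -1.42 with KO sham 1 or KO sham 3 left out. Its adjusted p ran from 0.0034 to 1.0 over the alternatives, DESeq2 giving the lowest. Acaa1b shares 96.6% of its sequence with Acaa1a over most of its length, so the split of reads between them is uncertain. Acaa1a, its copy, differed by -0.28. Eci2, an isomerase for unsaturated acyl-CoA, had 617, 548 and 418 CPM in WT and 269, 379 and 291 CPM in KO sham, and Pex11a, which acts in peroxisome division, 386, 295 and 264 CPM in WT and 245, 226 and 237 CPM in KO sham. Neither overlapped between the groups, with log2 differences of -0.75 ± 0.27 and -0.42 ± 0.22. For Pex11a it was -0.25 without WT sham 1.

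Cyp4a enzymes hydroxylate the end of fatty acid chains in the microsomes. Cyp4a31 had 2110.0, 2941 and 2421 CPM in the WT libraries and 1223, 828 and 811 CPM in the KO libraries. KO sham 2 and 3 were nearly equal and KO sham 1 stood between them and the WT range. Its log2 difference was -1.39 ± 0.30 (95% interval -2.04 to -0.73, edgeR adjusted p = 0.248), -1.61 and -1.28 with KO sham 1 or KO sham 3 left out. Part of Cyp4a31 is a 96.1% copy of Cyp4a10, so its reads may be shared. Cyp4a14 had 3324, 4642 and 2778 CPM in WT sham and 2779, 216 and 61.7 CPM in KO sham. KO sham 1 lay inside the WT range, next to its lowest library, while KO sham 2 and 3 were far below it. With all libraries the log2 difference was -1.81 ± 0.95 (edgeR adjusted p = 0.809). Without KO sham 1 it was -4.69 and passed (edgeR adjusted p = 0.0172, within a range of 0.0172 to 1.0 over the alternatives). Cyp4a14 is also known as a gene with higher levels in female mouse kidney, and KO sham 1 is the library with few chromosome Y counts. The part of that library's make-up in the result was not tested.

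Of the mitochondrial arm, Acadl, Acadm and Etfa had log2 differences below 0. Acadl, the long-chain acyl-CoA dehydrogenase, had 1534, 1750.0 and 1377 CPM in WT sham and 1045, 1085 and 919.8 CPM in KO sham. Its groups did not overlap, and the log2 difference was -0.61 ± 0.20 (edgeR adjusted p = 0.706). Acadm, the medium-chain acyl-CoA dehydrogenase, had 4649, 4337 and 4161 CPM in WT sham and 2800.0, 3042 and 1086 CPM in KO sham. All KO libraries were below all WT libraries, and KO sham 3 was by far the lowest. The log2 difference of Acadm was -0.92 ± 0.34, and -0.59 without KO sham 3. Etfa, a subunit of the flavoprotein that takes electrons from these dehydrogenases, had 1331, 1254 and 1091 CPM in WT and 779, 1179 and 422 CPM in KO sham. KO sham 2 reached the WT range for Etfa and the other KO libraries did not.

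Among other PPAR alpha targets, Vnn1, a pantetheinase that frees cysteamine and pantothenate, had 788, 1180.0 and 949 CPM in WT sham and 487, 390.0 and 247 CPM in KO sham. No KO library reached the lowest WT library, and the log2 difference was -1.38 ± 0.30 (95% interval -2.02 to -0.73, edgeR adjusted p = 0.248), -1.61 and -1.15 with KO sham 1 or KO sham 3 left out. Acot4, which cleaves succinyl-CoA and dicarboxylic acyl-CoA, had 395, 422 and 374 CPM in WT and 301, 275 and 157 CPM in KO sham, a log2 difference of -0.70 ± 0.25 (-0.46 without KO sham 3). The WT libraries were close together for Acot4 and the groups did not overlap. Pdk4, a kinase that inhibits pyruvate dehydrogenase, had 2173, 132 and 192 CPM in WT and 428, 99.2 and 84.8 CPM in KO sham. Its difference of -2.02 ± 0.97 rested on WT sham 1, whose level was the highest of the 6. Without that library it was 0.34. Ppara itself had 111, 33.2 and 36.6 CPM in WT and 165, 126 and 10.5 CPM in KO sham. KO sham 1 and 2 were above all WT libraries and KO sham 3 below them, with a log2 difference of 0.74 ± 0.72, the list's only value above 0.

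**Figure D2:**
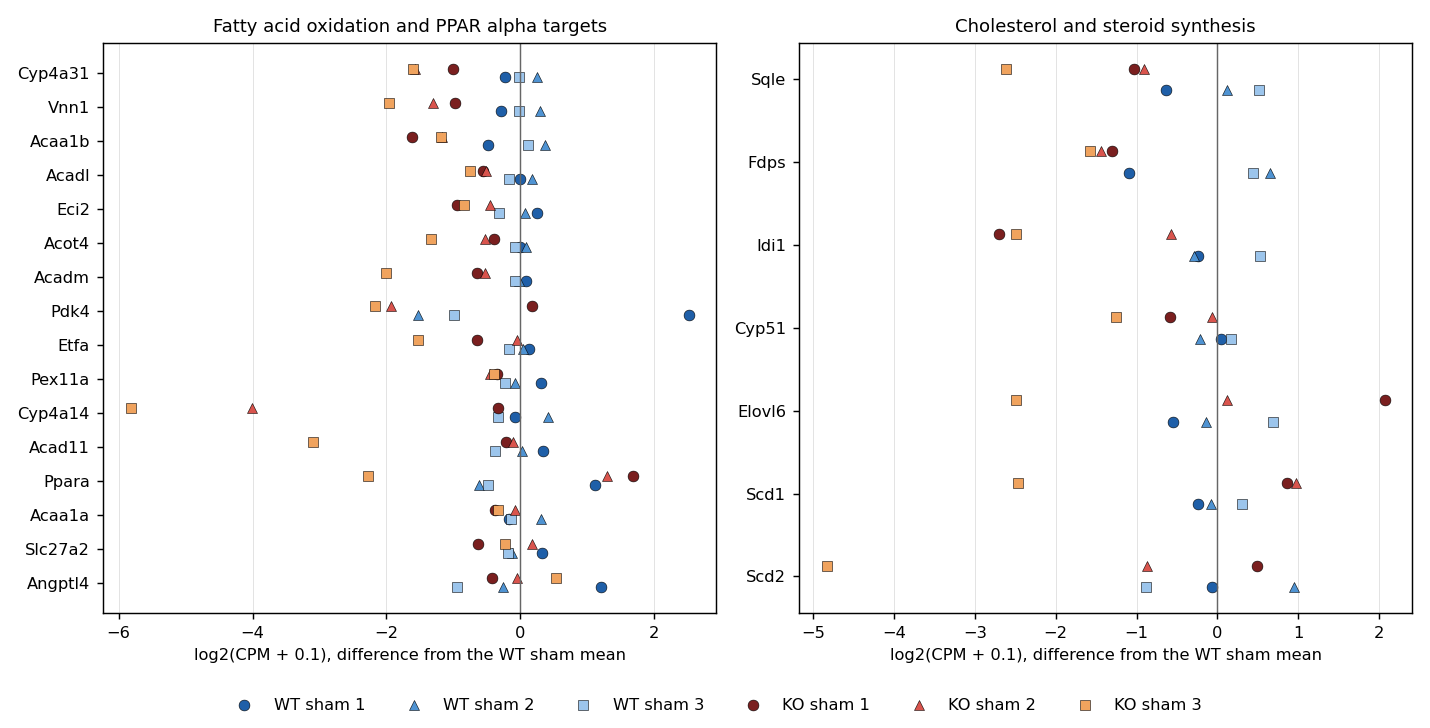
Each point is 1 sham library, at its log2(CPM + 0.1) minus the WT sham mean, for the 16 tested genes of fatty acid oxidation (left) and 7 of the 8 of sterol synthesis (right). For Acaa1b the KO points, 1199 to 1641 CPM, lie left of the lowest WT point at 2646 CPM, while for Ppara they fall on both sides.

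Promoter windows of 300 bases (250 before to 50 after the gene start) are shown for Acaa1b and Acadl, a peroxisomal and a mitochondrial member of the list with groups that did not overlap, and for Acot4, the list member with a match to a direct repeat of the kind PPAR alpha is known to bind. The letters searched on both strands were NGGNCA and AGGNCA, in this order with 1 base between them, where N is any base. A match was found in 262 of 32851 RefSeq windows of this length (0.798%) and in 1 of the 12 tested list genes that have a window. In Acot4 it is given in capitals, lies on the strand opposite to the gene and begins 13 bases before the gene start. A match is a description of these letters, and no binding was measured. Sequences are from RefSeq, GRCm38.p6, each on the strand of its gene, at chr12:84038129-84038428 (+) for Acot4, chr9:119157044-119157343 (-) for Acaa1b and chr1:66863260-66863559 (-) for Acadl.
Acot4: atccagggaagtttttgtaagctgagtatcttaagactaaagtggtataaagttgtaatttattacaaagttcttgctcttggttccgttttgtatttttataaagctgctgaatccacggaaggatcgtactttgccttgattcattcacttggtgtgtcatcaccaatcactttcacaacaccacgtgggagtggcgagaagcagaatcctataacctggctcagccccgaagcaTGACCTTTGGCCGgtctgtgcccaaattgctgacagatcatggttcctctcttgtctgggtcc
Acaa1b: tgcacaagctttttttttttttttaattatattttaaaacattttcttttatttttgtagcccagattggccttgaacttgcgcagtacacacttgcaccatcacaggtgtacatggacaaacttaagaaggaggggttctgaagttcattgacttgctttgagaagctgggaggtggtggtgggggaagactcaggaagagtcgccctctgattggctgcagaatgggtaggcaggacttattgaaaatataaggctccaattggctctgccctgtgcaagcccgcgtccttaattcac
Acadl: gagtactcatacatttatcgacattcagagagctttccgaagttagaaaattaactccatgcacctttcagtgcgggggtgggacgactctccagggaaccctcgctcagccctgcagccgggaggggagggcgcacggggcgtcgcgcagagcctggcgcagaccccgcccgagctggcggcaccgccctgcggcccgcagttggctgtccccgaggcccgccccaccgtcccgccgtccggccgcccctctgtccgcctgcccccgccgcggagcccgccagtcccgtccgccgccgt

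Sterol synthesis enzymes were lower as well. Of 31 genes listed for cholesterol and steroid synthesis, 8 are in the table and were tested. Of these 8, 6 had a log2 difference below 0, 3 had KO libraries all under the WT libraries (5.39% of all genes) and 4 had an unadjusted p under 0.05. The list's median log2 difference was -1.10. With KO sham 1 left out it was -1.44, and with KO sham 3 left out -0.68. Per library, the members' median deviation from the WT sham mean was -0.80, -0.72 and -2.46 in KO sham 1 to 3, against -0.39 to 0.48 in the WT libraries. Idi1, which isomerises the 5-carbon isoprenoid unit, had 202, 195 and 344 CPM in WT sham and 36.6, 159.6 and 42.4 CPM in KO sham. KO sham 2 was close to the lowest WT library and KO sham 1 and 3 were far lower. Idi1 had a log2 difference of -1.63 ± 0.60, and dropping KO sham 2 enlarged it to -2.65. Dropping KO sham 1 reduced the Idi1 difference to -1.29, dropping KO sham 3 to -1.33, and dropping both of these libraries to -0.63. Fdps, which joins these units into farnesyl diphosphate, had 47.8, 160.2 and 138 CPM in WT and 41.3, 37.5 and 34.1 CPM in KO sham. The KO libraries were alike and WT sham 1 lay near them, with a log2 difference of -1.62 ± 0.47. Sqle, squalene epoxidase, had 209.6, 352 and 466 CPM in WT and 159.7, 174 and 52.9 CPM in KO sham. Its groups did not overlap, and the log2 difference was -1.41 ± 0.40 (95% interval -2.29 to -0.53, edgeR adjusted p = 0.587), -1.59 and -1.04 with KO sham 1 or KO sham 3 left out.

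Beyond these lists, the gene of smallest p among lower named genes was Entpd4b, which encodes a nucleoside diphosphatase of the Golgi and lysosome. Entpd4b had 1649, 1801 and 1334 CPM in WT sham and 271, 671 and 559.9 CPM in KO sham. Every KO library was below every WT library, KO sham 1 the lowest. On the log2 scale the difference was -1.67 ± 0.32 (95% interval -2.37 to -0.97, edgeR adjusted p = 0.188), -1.38 and -1.76 with KO sham 1 or KO sham 3 left out. Entpd4b is a 100% copy of Entpd4 over the compared transcript, so the value of either gene is uncertain. Gm27176, a transcript inside it on the other strand, was at 0 in the KO sham libraries and at 5, 9 and 12 counts in WT sham, at least 8.76-fold lower when the KO group is set to a floor of 3 counts in all. Gm10354 was likewise at 0 in KO sham and at 13, 6 and 6 counts in WT sham, at least 8.60-fold lower, and is a 97.7% copy of another predicted gene. The split of reads with these copies, and for Gm27176 with the opposite strand, is uncertain.

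Reep6, a membrane protein of the endoplasmic reticulum, had 268, 444 and 329 CPM in WT sham and 113, 112 and 115 CPM in KO sham. The 3 KO values were nearly the same and all under the lowest WT value. This was a log2 difference of -1.62 ± 0.34 (95% interval -2.35 to -0.89, edgeR adjusted p = 0.233), -1.62 and -1.63 with KO sham 1 or KO sham 3 left out. Farsb, a subunit of phenylalanyl-tRNA synthetase, had 231, 251 and 206 CPM in WT and 97.6, 134 and 82.6 CPM in KO sham, a log2 difference of -1.13 ± 0.25 with groups apart. Lpcat3, which places polyunsaturated fatty acids into phospholipids, had 508, 499.8 and 467 CPM in WT and 292, 319 and 150.5 CPM in KO sham. The WT values of Lpcat3 were close together and KO sham 3 was the lowest, with a log2 difference of -0.95 ± 0.26. Of the other named genes, Lpo (lactoperoxidase), Abi2 (an actin regulator), Il17rd (an inhibitor of growth factor signalling), Fgfbp1 (which releases fibroblast growth factors from the matrix) and Trex1 (a DNA exonuclease) were lower without overlap, with log2 differences from -1.97 for Trex1 to -1.46 for Abi2. Trex1 overlaps Atrip on the same strand, and reads of the pair cannot be told apart. Gm15441, a transcript on the strand opposite to Txnip, had 74.2, 214 and 154 CPM in WT and 11.5, 27.9 and 36 CPM in KO sham. Its highest KO library was under its lowest WT library, with a log2 difference of -2.56 ± 0.51 (edgeR adjusted p = 0.22, ranging from 0.000437 to 1.0 over the alternatives).

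**Figure D3:**
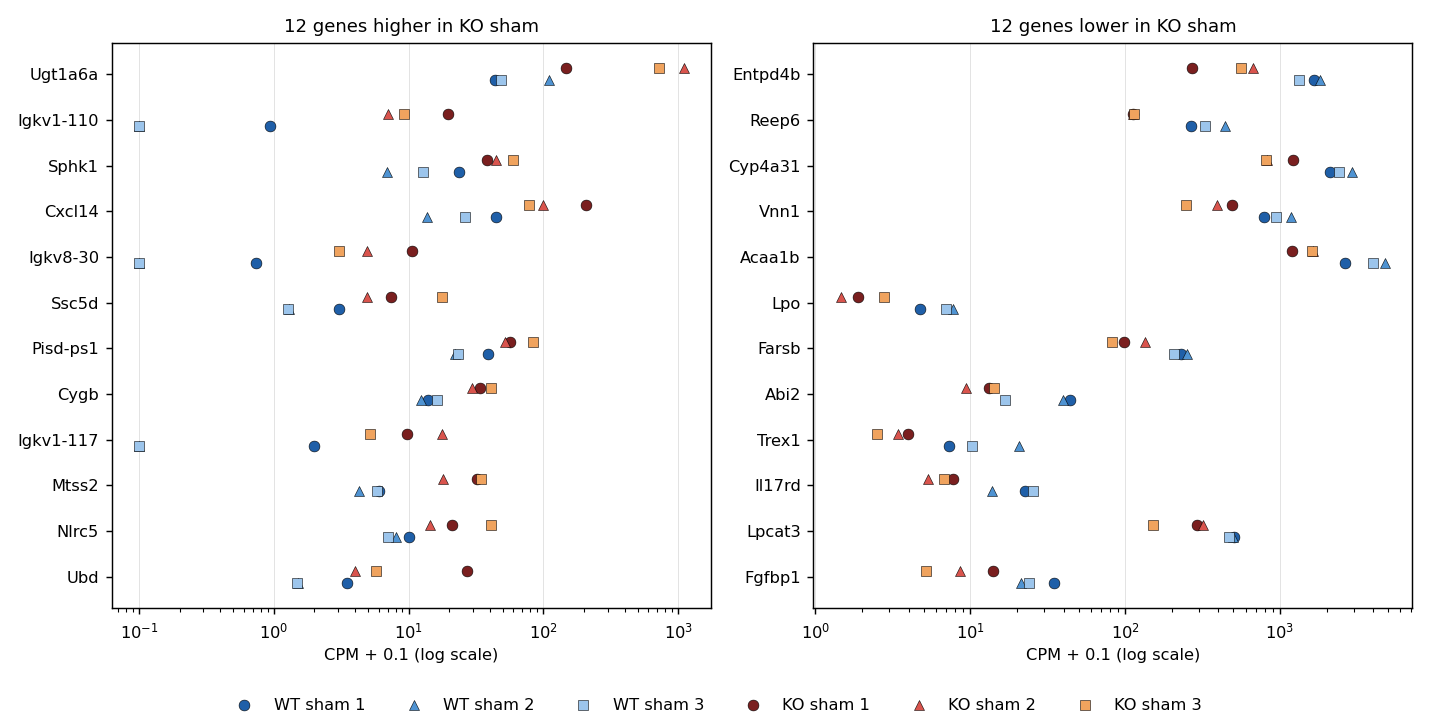
Each point is 1 sham library, at its CPM + 0.1 on a log axis, for the 12 genes higher (left) and the 12 lower (right) in KO sham of smallest unadjusted p among genes whose groups do not overlap, leaving out predicted symbols and genes under 5 CPM in both groups. The choice of genes fixes that the groups are apart, and for Reep6 the KO points lie at 113, 112 and 115 CPM with the lowest WT point at 268 CPM.

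Of genes higher in KO sham, the gene of smallest p was Gm42031, a long noncoding RNA (chr8:85125872-85132289). It had 30.1, 4.0 and 7.08 CPM in WT sham and 214, 207 and 652 CPM in KO sham. All KO libraries were several times above the highest WT library, WT sham 1. The log2 difference was 4.70 ± 0.72 (95% interval 3.13 to 6.28, edgeR adjusted p = 0.119), 4.96 and 3.94 with KO sham 1 or KO sham 3 left out. Without WT sham 1 it was 6.0 and passed (edgeR adjusted p = 0.00853, within 3.94e-10 to 0.679 over the alternatives). In the I/R libraries Gm42031 had 118, 89.96 and 65.8 CPM in WT and 101, 82.5 and 92.5 CPM in KO, so WT sham was the only low group. Gm43305, another predicted gene, had 245, 180.2 and 96.6 CPM in WT sham and 929, 725 and 1263 CPM in KO sham. Its groups were well apart, with a log2 difference of 2.48 ± 0.42 (edgeR adjusted p = 0.119). The lowest adjusted p of Gm43305 over the alternatives was 7.49e-06, in DESeq2.

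Ugt1a6a encodes a UDP-glucuronosyltransferase, which conjugates phenols and drugs for excretion. Ugt1a6a had 43.8, 110.5 and 48.8 CPM in WT sham and 146, 1096 and 723 CPM in KO sham. KO sham 1 was just above the highest WT library and KO sham 2 and 3 were far above it. Its log2 difference was 3.27 ± 0.61 (95% interval 1.95 to 4.59, edgeR adjusted p = 0.188). With KO sham 3 left out this became 3.19. With KO sham 1 left out it became 3.74 and passed (edgeR adjusted p = 0.00699, within 1.12e-05 to 0.966 over the alternatives). Genes of the Ugt1a locus use different first exons with the same later exons, so reads of the shared exons cannot be assigned to 1 of them. Ugt1a1, at the same locus, had 4.42, 3.6 and 16.7 CPM in WT and 312, 91.3 and 0 CPM in KO sham. KO sham 1, the lowest KO library for Ugt1a6a, was the highest for Ugt1a1, and KO sham 3 was at 0.

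Of the immunoglobulin light chain genes tested, most were higher in KO sham. The table holds 55, of which 24 had no count in any library and 5 were tested. Of these 5, 4 were higher without overlap (4.85% of all genes). The fifth, Igkv9-120, had 115, 0 and 0 counts in WT sham 1 to 3 and 15, 23 and 22 counts in KO sham 1 to 3, so its groups overlapped, and its log2 difference was -0.93 ± 1.57 (7.45 without WT sham 1). The 4 variable genes among the 5 would have failed the filter without their counts in KO sham. How many of the 5 were higher was thus partly fixed by the filter and cannot be set against the share of all genes. Summed over the 55 genes there were 927, 26 and 5 counts in WT sham and 4701, 1790 and 3846 counts in KO sham. The 50 heavy chain genes together had 75, 2 and 7 counts in WT and 363, 137 and 10 counts in KO sham, which overlap, and neither of the 2 tested was apart. These tallies by gene type were chosen after seeing the data. Igkc, the constant region of the kappa chain made by B and plasma cells, had 154, 4.41 and 0.984 CPM in WT sham and 652, 277 and 992 CPM in KO sham. All KO libraries were above all WT libraries, and WT sham 1 was far above the other WT libraries. On the log2 scale the difference was 3.59 ± 1.31 (edgeR adjusted p = 0.787), 3.57 and 3.12 with KO sham 1 or KO sham 3 left out. Without WT sham 1 it was 7.88 and passed (edgeR adjusted p = 0.0385, within 0.0385 to 1.0 over the alternatives). The variable gene Igkv1-110 had 4, 0 and 0 counts in WT sham 1 to 3 and 120, 36 and 34 counts in KO sham 1 to 3. Igkv1-117, a 97.5% copy of it, had 9, 0 and 0 counts in WT and 60, 91 and 19 counts in KO sham, and Igkv8-30 had 3, 0 and 0 counts against 65, 25 and 11. These 3 variable genes were named because their groups did not overlap. After I/R, the 47 variable genes of the light chains together had 0, 5 and 1 counts in the WT libraries and 12, 20 and 8 counts in the KO libraries. Of the 4 tested, 2, Igkv1-110 and Igkv1-117, were higher without overlap after I/R (4.54% of all genes), Igkv8-30 overlapped at 0, 1 and 0 against 0, 3 and 0 counts, and Igkv9-120 had no count. Cd79a, part of the B cell receptor, had 1.26, 1.2 and 0.59 CPM in WT and 4.68, 2.13 and 3.76 CPM in KO sham. Of 6 lymphocyte markers tested, 5 had a log2 difference above 0 and 2, Igkc and Cd79a, did not overlap (4.85% of all genes were higher without overlap). The list's summed CPM, for the most part Igkc, ranged from 13.4 to 176 in WT sham and from 299.9 to 1026 in KO sham. Of 8 monocyte and macrophage markers 5 had a log2 difference above 0 and 3 below, with a median of 0.12. None was higher without overlap and 2 were lower (4.85% and 5.39% of all genes). The 2 included Adgre1, the F4/80 antigen, with 17.9, 18.4 and 10.6 CPM in WT and 8.71, 6.77 and 3.76 CPM in KO sham.

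Of signalling and immune genes, Cxcl14, a chemokine made by epithelium and stroma, had 44.2, 13.6 and 26 CPM in WT sham and 206, 99.1 and 77.5 CPM in KO sham. Its groups did not overlap, and the log2 difference was 2.19 ± 0.51 (95% interval 1.09 to 3.29, edgeR adjusted p = 0.285), 1.66 and 2.45 with KO sham 1 or KO sham 3 left out. Sphk1, a kinase that makes sphingosine 1-phosphate, had 23.4, 6.81 and 12.8 CPM in WT and 37.9, 44.1 and 59.5 CPM in KO sham. The KO libraries lay above all WT libraries, with a log2 difference of 1.72 ± 0.39 (edgeR adjusted p = 0.272). Nlrc5, an activator of MHC class I genes, had 9.9, 8.01 and 6.89 CPM in WT and 20.8, 14.3 and 40.8 CPM in KO sham, without overlap. H2-Q7, an MHC class I gene, had 68.1, 82.9 and 70.8 CPM in WT and 140.5, 87.3 and 98.7 CPM in KO sham, also without overlap, and its log2 difference was 0.56 ± 0.29, or 0.33 without KO sham 1. These are 2 of the 6 antigen presentation genes tested, while 4.85% of all genes were higher without overlap. Ubd, a ubiquitin-like modifier induced by inflammatory cytokines, had 3.37, 1.4 and 1.38 CPM in WT and 26.9, 3.87 and 5.63 CPM in KO sham, where KO sham 1 was far above the rest. Cygb, a globin of fibroblasts and pericytes, had 13.9, 12.2 and 16.1 CPM in WT and 33.7, 29.2 and 40.8 CPM in KO sham, a log2 difference of 1.29 ± 0.32 with groups apart. Among the 12 higher named genes of smallest p without overlap, Mtss2 and Ssc5d were the other protein-coding ones. Their log2 differences were 2.42 ± 0.63 and 2.46 ± 0.60. Pisd-ps1, a pseudogene and partial copy of Pisd, differed by 1.20 ± 0.30.

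Matrix and fibroblast markers were mostly higher. Of 12 tested, 10 had a log2 difference above 0 and 3 were higher without overlap (4.85% of all genes), 4 had an unadjusted p under 0.05, and the median log2 difference was 0.57. With KO sham 1 left out the median was 0.33 and 3 were higher without overlap (8.46% of all genes then). With KO sham 3 left out it was 0.59 with 6 higher (11.3%), and with KO sham 2 left out 5 were higher (10.7%). Pdgfrb, the receptor of pericytes and fibroblasts for platelet-derived growth factor, had 69.7, 55.5 and 70.8 CPM in WT sham and 121, 91.7 and 159 CPM in KO sham. No KO library was as low as the highest WT library, and the log2 difference was 0.92 ± 0.25 (95% interval 0.37 to 1.47, edgeR adjusted p = 0.506), 0.93 and 0.70 with KO sham 1 or KO sham 3 left out. Tgfb1, the main profibrotic cytokine, had 44.5, 46.1 and 49.4 CPM in WT and 91.6, 54 and 69.2 CPM in KO sham, and Fbln1, a matrix glycoprotein, 20.4, 15 and 19.9 CPM in WT and 39, 29.8 and 28.2 CPM in KO sham. Both were apart between the groups, at log2 differences of 0.62 ± 0.28 and 0.81 ± 0.48. Without KO sham 1 that of Tgfb1 was 0.40. Tnc, tenascin C, had 9.27, 11.2 and 23.4 CPM in WT and 64.9, 30.4 and 14.5 CPM in KO sham, where KO sham 3 lay inside the WT range and KO sham 1 far above it.

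Partners and substrates of LRRK2 gave smaller differences. Of 9 tested genes of the list of Lrrk2 and its partners, 4 were above and 5 below 0, with a median log2 difference of -0.19, and 1, Hsp90ab1, was lower without overlap (5.39% of all genes). The median was -0.30 without KO sham 1 and -0.07 without KO sham 3. Without KO sham 1, 3 were higher and 2 lower without overlap (8.46% and 10% of all genes then). Without KO sham 2, 2 were lower (12%), and without KO sham 3, 1 was (11.5%). Hsp90ab1, a chaperone that stabilises LRRK2 protein, had 4995, 3413 and 3296 CPM in WT sham and 2572, 3159 and 2349 CPM in KO sham, a log2 difference of -0.53 ± 0.26 (-0.32 without WT sham 1). Rab29, a Rab GTPase that recruits LRRK2 to membranes, had 43.6, 37.2 and 34 CPM in WT and 29, 44.5 and 66 CPM in KO sham. KO sham 1 was below and KO sham 3 above the WT range of Rab29, and the log2 difference was 0.28 ± 0.30. Rilp, an effector of lysosomal Rab proteins, had 78.2, 75.5 and 61.6 CPM in WT and 69.4, 80.3 and 142 CPM in KO sham. KO sham 3 alone was well above the WT libraries for Rilp. Of 12 tested Rab GTPases none had groups that did not overlap, 9 were below 0 and the median was -0.22. Without KO sham 3 the median was -0.06, and without KO sham 2 it was -0.34 with 3 members lower (12% of all genes then). Rab10, a well-studied LRRK2 substrate, had 366, 321 and 399 CPM in WT and 366, 367 and 225 CPM in KO sham, at a log2 difference of -0.18 ± 0.25 (95% interval -0.73 to 0.37). Rab3d, a secretory granule Rab, had 29.9, 15.4 and 59.2 CPM in WT and 22.1, 17.4 and 12.3 CPM in KO sham, with overlap and a difference of -1.0 ± 0.47 (-0.39 without WT sham 3). Of 7 tested genes that neighbour Lrrk2 on chromosome 15, none was apart between the groups.

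Lysosomal genes were near the levels of WT sham, with a few lower. Of 18 tested hydrolases and activators, 12 were below 0, 4 were lower without overlap (5.39% of all genes) and the median log2 difference was -0.15. Without KO sham 1, 4 were lower (10% of all genes then), and without KO sham 2, 7 were (12%). Without KO sham 3, 5 were lower and 2 higher (11.5% and 11.3%). With KO sham 1 and 3 both left out the median was 0.01. The 4 lower with all libraries were Smpd1, Psap, Aga and Acp2. Smpd1, acid sphingomyelinase, had 380.3, 417 and 385 CPM in WT sham and 312, 329 and 278 CPM in KO sham, a log2 difference of -0.36 ± 0.22. Psap, the precursor of the saposins that help break down sphingolipids, had 6045, 6328 and 5967 CPM in WT and 4084, 5457 and 4190.0 CPM in KO sham, a log2 difference of -0.42 ± 0.27. For both genes the WT libraries were close together and KO sham 2 was the highest of the KO libraries. Aga, which cleaves asparagine-linked sugars, and Acp2, lysosomal acid phosphatase, differed by -0.29 ± 0.20 and -0.18 ± 0.18. Ctse, cathepsin E, went the other way, with 3.79, 3.81 and 2.16 CPM in WT and 11.8, 5.42 and 3.49 CPM in KO sham. Of 19 tested lysosomal membrane and proton pump genes, none was apart and the median was -0.14 (-0.06 without KO sham 2 and -0.08 without KO sham 3). Of 6 tested autophagy genes none was apart either, and the median was -0.06.

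**Figure D4:**
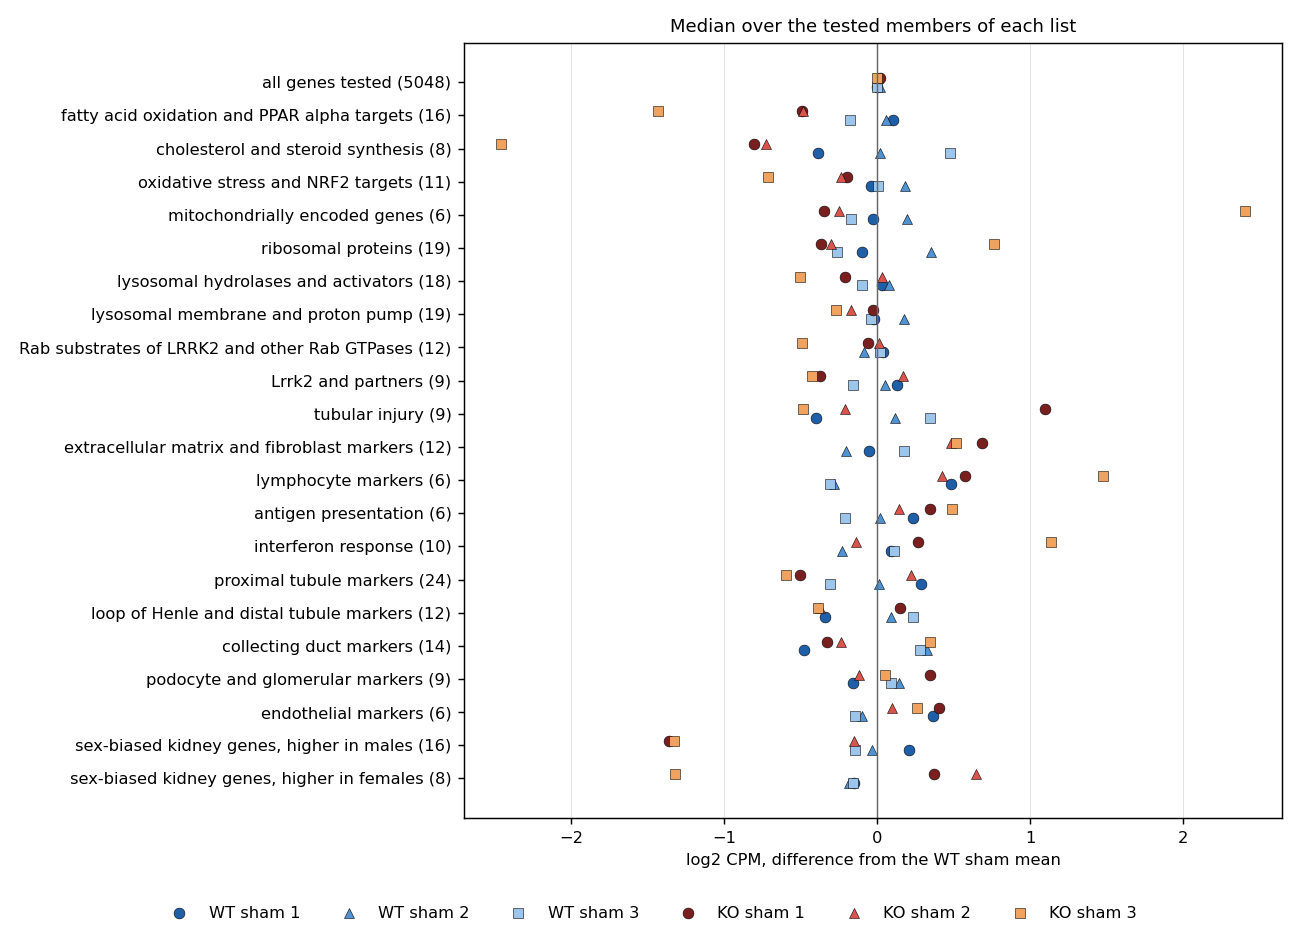
Each point is 1 sham library, at the median over a list's tested members (number in brackets) of log2 CPM minus the WT sham mean. The KO points of fatty acid oxidation lie at -0.49, -0.49 and -1.43, left of all WT points, and those of the male-biased list at -1.36, -0.15 and -1.33.

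Markers of tubule segments, injury and sex varied with single libraries. Of 24 tested proximal tubule markers, 16 were below 0, 2 were lower and 2 higher without overlap (5.39% and 4.85% of all genes), and the median log2 difference was -0.36. Without KO sham 2, 12 were lower (12% of all genes then). Without KO sham 1, 3 were lower and 2 higher (10% and 8.46%). Without KO sham 3, 3 were lower and 3 higher (11.5% and 11.3%). That list also holds Umod, a gene of the loop of Henle. The summed CPM of the list ranged from 65230 to 93790 in WT sham and from 48100 to 79980 in KO sham, and its part in the fatty acid result was not tested. Anpep, an aminopeptidase of the brush border, had 778, 801 and 782 CPM in WT sham and 465, 637 and 383 CPM in KO sham. Slc7a9, a subunit of the cystine transporter, had 321, 311 and 193 CPM in WT and 470.1, 421 and 443 CPM in KO sham. Anpep was lower and Slc7a9 higher in every KO library, at log2 differences of -0.67 ± 0.26 and 0.69 ± 0.27. Havcr1, which encodes the injury marker KIM-1, had 4.63, 8.61 and 21.8 CPM in WT and 230.2, 3.29 and 1.07 CPM in KO sham, and Lcn2, which encodes the injury marker NGAL, 10.3, 17 and 21.8 CPM in WT and 124, 6.58 and 16.9 CPM in KO sham. KO sham 1 alone was high for both genes. Their log2 differences of 2.74 ± 1.32 and 1.59 ± 0.85 became -2.36 and -0.50 without that library.

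Of 16 tested genes known to be higher in male mouse kidney, 15 were below 0, 2 were lower without overlap (5.39% of all genes) and the median log2 difference was -0.68. Without KO sham 2, 11 were lower (12% of all genes then), and without KO sham 3, 4 were (11.5%). The members' median deviation from the WT sham mean was -1.36, -0.15 and -1.33 in KO sham 1 to 3. Cyp2j13, an epoxygenase of this list, had 1326, 767 and 633 CPM in WT sham and 1.13, 1179 and 559 CPM in KO sham. Acsm3, an acyl-CoA synthetase for medium chains, had 2784, 1529 and 2153 CPM in WT and 4.03, 1642 and 176 CPM in KO sham. KO sham 1 was close to 0 for both, KO sham 2 was within the WT range, and KO sham 3 was below it. Of 8 tested genes known to be higher in female mouse kidney, 4 were above and 4 below 0, 1 was lower without overlap (5.39% of all genes) and none higher, and the median was -0.0004. Their summed CPM ranged from 5410 to 7533 in WT sham and was 6513, 3445 and 2090 in KO sham 1 to 3. Prlr, the prolactin receptor, is of this list and had 8.43, 74.5 and 34.2 CPM in WT and 511, 91.1 and 23.1 CPM in KO sham, with KO sham 1 alone far above the WT range. The part of these genes in the genotype differences was not tested, and the fatty acid median without KO sham 1 is given above.

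Of 6 tested mitochondrially encoded genes all had a log2 difference above 0, with a median of 1.23 and none without overlap. Without KO sham 3, 5 of the 6 were lower without overlap (11.5% of all genes then). Nnt, the mitochondrial transhydrogenase, had 1009, 934 and 903 CPM in WT sham and 411, 542 and 0 CPM in KO sham. Every KO library was lower, and KO sham 3 had a count of 0, as did KO I/R 2. A second Nnt entry of the annotation overlaps this one on the same strand, so the 0 may not be that of the gene. With these libraries the log2 difference was -1.58 ± 1.51, and without KO sham 3 it was -0.99. Of 11 tested genes of oxidative stress and NRF2 targets, 10 were below 0 and 3 were lower without overlap (5.39% of all genes). Without KO sham 1, 5 were lower (10% then). Among the 3 was Gpx4, a peroxidase of lipid hydroperoxides, with 753, 864 and 718 CPM in WT and 485, 674 and 309.8 CPM in KO sham. Its log2 difference was -0.67 ± 0.26, and -0.43 without KO sham 3. Part of Gpx4 is a 99.7% copy of Gpx4-ps2, so its reads may be shared.

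KO sham 2, which did not stand apart, had the highest correlations of the KO libraries with WT sham (0.961 to 0.971), and its furthest genes are given as values with no test. Its Ugt1a6a level of 1096 CPM compared with a highest WT value of 110.5. Plin1, which coats the lipid droplets of fat cells, had 0, 5.41 and 0.984 CPM in WT sham and 6.94, 31.9 and 0.268 CPM in KO sham. KO sham 2 was the highest of the 6 libraries. Cyp4a14, at 216 CPM, was the furthest below the WT libraries.

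The genotype difference after I/R was set beside that in sham, from libraries the sham comparison does not share. No gene passed there either (0.0% of 5048 in edgeR, 140 genes or 2.77% at an unadjusted p under 0.05, and 2 in DESeq2). Of the 12 higher named genes 9 also had a log2 difference above 0 after I/R, and of the 12 lower 4 had one below 0. Over all genes 2844 of 5048 were above 0 after I/R. The groups lay apart in the same direction for 4 of the 12 higher genes (4.54% of all genes were higher without overlap after I/R) and for 1 of the 12 lower, Lpo (4.89% lower, and 9.43% in either direction). The 4 were Pisd-ps1, Ubd, Igkv1-110 and Igkv1-117. Igkv1-110 had 0, 0 and 0 counts in WT I/R and 4, 3 and 3 in KO I/R. Igkv1-117, its 97.5% copy, had 0, 2 and 0 against 6, 5 and 3. Reads of this pair may be shared, so the 4 are not separate cases to set against the share of all genes. The fatty acid oxidation list had a median of 0.40 after I/R, against -0.69 in sham, and the matrix list -0.75, against 0.57. The difference between the medians of the surgeries was not tested. Acaa1b had 2439, 2629 and 3411 CPM in WT I/R and 3802, 5877 and 5230.0 CPM in KO I/R. The KO libraries were all above the WT libraries there, the reverse of sham, with a log2 difference of 0.81 ± 0.30. The difference between the I/R and sham contrasts of Acaa1b was 2.17 ± 0.42 and missed the test (edgeR adjusted p = 0.26). Gm15441 had 56.9, 82.8 and 167 CPM in WT I/R and 234, 264 and 286 CPM in KO I/R, and the contrasts differed by 3.92 ± 0.71 (edgeR adjusted p = 0.249). No gene passed the test of that difference in edgeR, 265 (5.25%) had an unadjusted p under 0.05, and DESeq2 called 16. Igkc had 1.64, 2.38 and 1.22 CPM in WT I/R and 12.6, 61.4 and 14.2 CPM in KO I/R, so its KO libraries were above its WT libraries in both surgeries. Pdgfrb had 168, 205 and 146 CPM in WT I/R and 120.1, 123 and 89.6 CPM in KO I/R, lower in KO, with a difference between the contrasts of -1.56 ± 0.35 (edgeR adjusted p = 0.442). KO I/R 2, whose columns did not match, is among these libraries. Without it the sham comparison had 0 calls and 405 genes at an unadjusted p under 0.05.

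**Figure D5:**
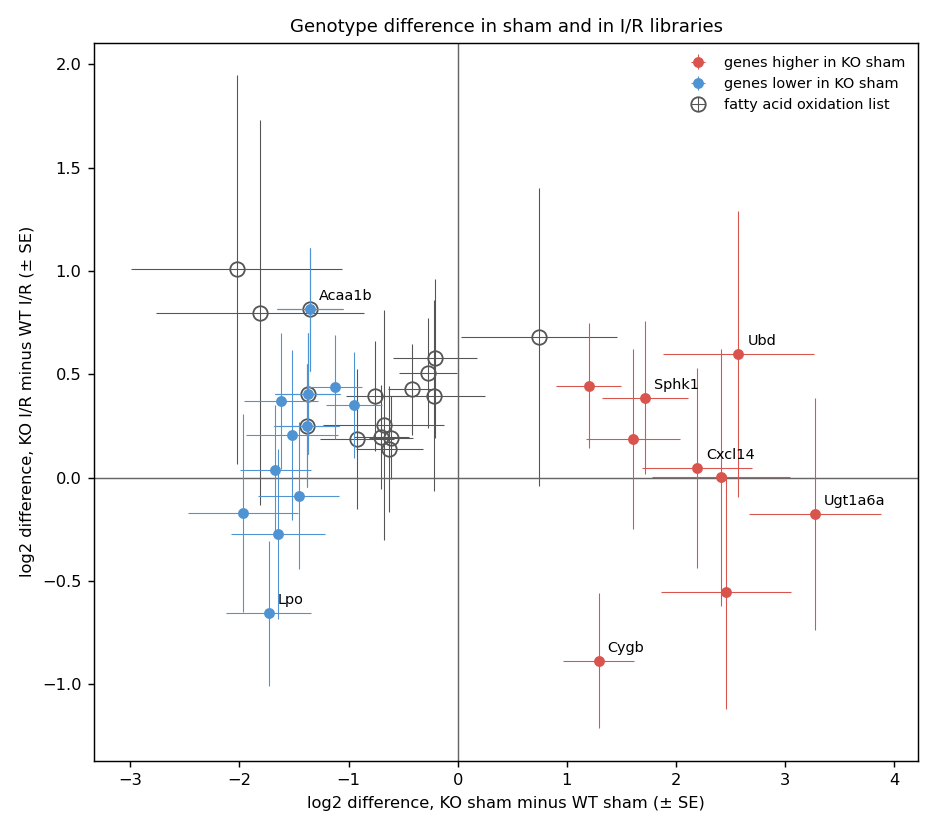
Log2 difference with its SE, KO minus WT, in sham (x axis) and in I/R (y axis) libraries for the named higher and lower genes other than the 3 immunoglobulin variable genes, and for the fatty acid oxidation list. Acaa1b lies at -1.35 in sham and 0.81 after I/R.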

How the data were processed

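RNA was sequenced from 12 mouse kidney libraries in 4 groups of 3 (WT and Lrrk2 knockout, sham and I/R), with groups taken from the sample labels. Per the labels' protocols, an RNeasy kit gave total RNA and a TruSeq kit gave libraries for paired-end reads. In 1 table the authors deposited, per the file headers, a read count and an FPKM value (read fragments scaled for transcript length and depth) for every gene and library. HISAT2 and StringTie were used, per the submitters' processing notes, without versions. The sources used here do not give the genome build, how reads were counted or whether strand was used. GENCODE M21 on GRCm38 has 99.0% of the loci with the same coordinates.

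The test was edgeR's quasi-likelihood test (edgeR 4.0.16 in R 4.3.3) on the deposited counts, scaled by TMM, with genes kept by filterByExpr at a minimum count of 10 and a minimum total of 15, a single model of the 12 libraries and Benjamini-Hochberg adjustment over 5048 genes. An adjusted p under 0.05 was called. CPM is edgeR's count scaled by library size and TMM factor, and list deviations use log2 CPM with a prior count of 2. FPKM values served only for an alternative. The code was tested on simulated data. Totals over the table were 4678827 to 5456261 counts per library, and with 3 libraries a group the spread between libraries limits the precision.

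Named genes are Lrrk2, Havcr1 and Lcn2, the 12 higher and 12 lower genes of smallest p whose sham groups do not overlap (at least 5 CPM in a group, no predicted symbol), the 2 of smallest p from each list, and the genes furthest apart in single libraries. Other genes printed, predicted ones among them, were chosen after their values were seen, and the values of 2 list members are not reported here. The members and lists were chosen with earlier results of these data known. Near-copies were found with BLAST+ 2.17.0 among transcripts. Values of Farsb, Igkc, Anpep, Prlr, Cldn14 and Trex1, which overlap an annotated gene on the same strand, are uncertain, as are those of Acaa1b, Sphk1, Cygb, Lpcat3, Nlrc5, Acsm3, Tnc and Ssc5d, which overlap one on the other strand.

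Alternatives were RLE and upper-quartile factors, no filter and a stricter one (5 CPM in 3 libraries), a robust spread, DESeq2 1.42.0, limma 3.58.1 with voom and sample quality weights, limma on log2(FPKM + 0.1) and log2(FPKM + 1), sham groups alone, the replicate number as a block, a log2 threshold of 1, mitochondrial genes and their nuclear copies left out, each library left out, and KO sham 1 and 3 left out together. Counts of list members without 1 KO sham library and the tally of immunoglobulin genes were added after seeing the data.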

Additional observations from a re-analysis of the deposited data

How the results depend on the processing

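No gene was called for KO sham against WT sham in edgeR with RLE or upper-quartile factors, a stricter filter, a robust spread, a log2 threshold of 1, mitochondrial genes left out, or the sham groups alone (173 genes at an unadjusted p under 0.05 there). Without a filter 5 genes were called, in DESeq2 28, in limma-voom with sample quality weights 1, on log2(FPKM + 0.1) 7 and on log2(FPKM + 1) 4, and the cause was not tested. Leaving out 1 library gave 0 to 2 calls, with 2 without WT sham 1 (Gm42031, Igkc) and 2 without KO sham 1 (Ugt1a6a, Cyp4a14), and leaving out KO sham 1 and 3 together gave 1 (Ugt1a6a). Between the I/R groups, DESeq2 called 2 genes and leaving out 1 library gave 0 to 1. For the interaction there were 3 calls without a filter, 16 in DESeq2 and 0 to 2 without 1 library. With the replicate number as a block, the sham comparison had 0 calls and a smallest adjusted p of 0.111. Deviations of libraries with the same number correlated at 0.04, -0.07 and -0.09, and those with different numbers at -0.19 to 0.19. These values give no sign of pairing by number, but with 3 libraries a group they cannot exclude it. The medians over all genes ran from -0.04 to 0.07 over the alternatives.

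Without KO sham 1 and 3, the median of Lrrk2 and its partners went from -0.19 to 0.16, that of the Rab GTPases from -0.22 to 0.0037 and that of the lysosomal membrane genes from -0.14 to -0.27. The matrix median went from 0.57 to 0.33 without KO sham 1, its lowest value with 1 library left out, the highest being 0.66. For the 81 genes printed, 2036 of 2096 values under the alternatives kept direction and side of the threshold, 46 passed it, and 14 values of 7 genes changed sign. These were Cyp2j13 at 0.37, Havcr1 at -1.82, Lcn2 at -1.32 and Rab10 at 0.0189 without KO sham 1 and 3, Havcr1 at -2.36 and Lcn2 at -0.50 without KO sham 1, Rab10 at 0.0179 and Rab29 at -0.0616 without KO sham 3, and Pdk4 at 0.34 without WT sham 1. Igkv9-120, at -0.93 with all libraries, was at 7.45 without WT sham 1, 1.78 with the replicate block, 2.63 in limma-voom with quality weights, and 2.53 and 0.64 on log2(FPKM + 0.1) and log2(FPKM + 1), and the cause of the last 4 was not tested. With 1 library left out, the log2 difference ran from -2.36 to 3.56 for Havcr1, -0.50 to 2.11 for Lcn2, -3.18 to 0.34 for Pdk4, -0.294 to 0.0179 for Rab10, -0.0616 to 0.523 for Rab29 and -1.52 to 7.45 for Igkv9-120. With 1 sham library left out, the log2 difference of 38 of the 81 genes changed sign or moved by over 1.5 times, 17 of them without KO sham 1, 8 without KO sham 2, 11 without KO sham 3, 11 without WT sham 1, 4 without WT sham 2 and 4 without WT sham 3. With 3 libraries a group, of which 2 KO sham libraries stood apart, the spread limits what the test can call, and only genes held in the table were analysed here.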

Other observations

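Of 10 tested genes of p53 targets and cell death, 7 had a log2 difference above 0, 3 were lower without overlap (5.39% of all genes) and 1 was higher (4.85%). Ccng1, cyclin G1, a p53 target, had 656, 576 and 688 CPM in WT sham and 469.7, 502 and 341 CPM in KO sham, a log2 difference of -0.55 ± 0.22. Gpx4, also on the oxidative stress list, and Ripk1, a kinase of cell death signalling, were the other lower ones, and Ripk1 differed by -0.47 ± 0.27. Mcl1, which protects cells from apoptosis, was the higher one, at 0.28 ± 0.18. Of 10 tested genes of cytokines, chemokines and adhesion 9 were above 0, and the members' median deviation from the WT sham mean was 1.67, 0.005 and -0.12 in KO sham 1 to 3, so KO sham 1 alone stood out. Of 19 tested ribosomal protein genes 3 were lower without overlap (5.39% of all genes) and 12 had a log2 difference above 0. The members' median deviation from the WT sham mean was -0.37, -0.30 and 0.76 in KO sham 1 to 3. Without KO sham 3, 8 were lower without overlap and 0 higher (11.5% and 11.3% of all genes then).

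Of 14 tested cell cycle genes 7 had a log2 difference above 0 and 7 below, with a median of -0.08. With all libraries 2 were lower without overlap (5.39% of all genes), and without KO sham 1, 5 were (10% then). Without KO sham 2, 2 were lower and 2 higher (12% and 10.7%), and without KO sham 3, 3 were lower (11.5%). Aurkb, a mitotic kinase lower without overlap, had 2.32, 4.41 and 3.54 CPM in WT sham and 1.94, 1.16 and 1.07 CPM in KO sham. Its log2 difference was -1.26 ± 0.43. Of 12 loop of Henle and distal tubule markers 8 had a log2 difference below 0, with a median of -0.35, while 2 were higher without overlap (4.85% of all genes). 1 of these was Cldn14, a claudin that limits the passage of calcium between cells, at 3, 2 and 0 counts in WT sham and 19, 4 and 4 counts in KO sham. Those counts are small, and in I/R libraries Cldn14 had 21.3, 32.9 and 22.1 CPM in WT and 15.2, 23.6 and 19.6 CPM in KO. Trib3, a pseudokinase induced in the integrated stress response, had 2.32, 5.41 and 3.15 CPM in WT and 17.4, 6.19 and 6.44 CPM in KO sham, and was 1 of 7 genes of its list with groups apart (10.2% of all genes).

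Of 4 tested red blood cell genes 3 had a log2 difference above 0 and none had groups apart. The alpha globin gene Hba-a2, a 99.8% copy of Hba-a1, had 289, 62.5 and 28.5 CPM in WT sham and 81.5, 415 and 1026 CPM in KO sham. KO sham 3 was the highest and WT sham 3 the lowest of the 6 libraries. The list's summed CPM ranged from 748.5 to 3147 in WT sham and from 1141 to 7114 in KO sham.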
